A study of Mus musculus with 10 samples.

Results

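The 9 genes described here are leukemia-linked Hox genes and their Meis and Pbx cofactors, namely Hoxa5, Hoxa7, Hoxa9, Hoxa10, Hoxb4, Hoxb5, Meis1, Pbx2 and Pbx3. They were chosen by name, and all 9 are among the 25078 genes of the count table. Their transcripts were measured in LSK cells (lineage-negative, c-Kit-positive and Sca-1-positive bone marrow cells, the fraction that holds hematopoietic stem cells and multipotent progenitors) from 10 mice, 5 of genotype CM and 5 of genotype CM/miR-126Δ/Δ, and each mouse gave 1 library. CM mice had the genotype Cbfb56M/+/Mx1-Cre, in which the knocked-in allele yields the CBFβ-SMMHC fusion of inv(16) acute myeloid leukemia (AML) after recombination. In CM/miR-126Δ/Δ mice these alleles were joined by miR-126flox/flox, so that both copies of miR-126 are deleted by the same Cre. Both groups, backcrossed to C57BL/6, received 7 doses of poly(I:C) at 14 mg/kg from an age of 6 to 8 weeks, and cells were sorted 6 weeks later, at a pre-leukemic stage. The Mx1 promoter answers to interferon, so recombination is not restricted to LSK cells, and every mouse of the comparison carried the fusion allele. The comparison therefore asks what loss of miR-126 does to these factors in cells that carry the fusion, and mice without the fusion were not analysed here.

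Hox proteins are homeodomain transcription factors encoded in the clusters Hoxa, Hoxb, Hoxc and Hoxd. Meis and Pbx proteins are homeodomain proteins of the TALE class that bind DNA together with Hox proteins and raise the affinity and selectivity of the complex. In bone marrow, Hoxa9 and Meis1 maintain stem and progenitor cells and are lowered as cells differentiate, and their joint overexpression causes AML in mice. In human AML, high HOXA9 and MEIS1 levels are typical of leukemias with KMT2A rearrangements or NPM1 mutations and less so of core-binding factor leukemias such as inv(16). HOXA9 has been described as a target of miR-126 through a site within its homeobox.

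The letters that a direct effect of the seed of miR-126a-3p on these transcripts would use are shown first, and no other strand was searched. This mature strand of the deleted microRNA (RefSeq, GRCm38.p6, chr2:26591402-26591423, plus strand) is given with its seed, bases 2 to 8, in capitals. Below it stand the stretches of member transcripts that hold the complement of seed bases 2 to 7, GGTACG, with the match in capitals and a following A, which faces base 1, also in capitals.
mmu-miR-126a-3p: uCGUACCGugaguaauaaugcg
Hoxa9, coding sequence: cacgggaccgcaGGTACGAggtggcccggc
Meis1, coding sequence: cgatggcgcaaaGGTACGAcgacctacccc
Meis1, 3′ UTR: ttaactgagtggGGTACGctaattatactt
Hoxa5, coding sequence: tgcactccggcaGGTACGgctacggctaca
Hoxa10, 5′ UTR of 1 transcript: taagagcagcacGGTACGttatttcacttg

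In the GENCODE M1 transcripts, which covered all 9 members, 4 held such a match, and Hoxa7, Hoxb4, Hoxb5, Pbx2 and Pbx3 held none. The Hoxa9 match lay at bases 1970 to 1976 of the longest transcript (3226 bases), within the stretch that encodes the homeodomain, and in 1 shorter transcript the same letters fell in the 3′ UTR. The Meis1 matches started at base 737, near the start of the coding sequence, and at base 3283 of a 3428-base transcript. The Hoxa5 match lay at bases 368 to 373 of 1877, in the coding sequence. In the Hoxa10 window the c before the capitals also pairs with the microRNA, at base 8, which makes this the only match to seed bases 2 to 8 among the members. A match to bases 2 to 7 somewhere in a transcript was present in 9.96% of the 22611 genes searched, in the coding sequence in 6.83% and in the 3′ UTR in 2.92%. With the A, a coding match was present in 2.06%. A match is a description of letters and not a site shown to be bound.

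All 9 genes were detected in every mouse, with 32 to 65 counts for Hoxb5, the lowest, and 7094 to 10936 counts for Meis1, the highest. Libraries held 23649233 to 33202086 counts on genes, with a higher mean in CM mice (exact permutation test, p = 0.0476), and values are given as CPM (counts relative to library sizes scaled by TMM) or, between genes, as RPKM (CPM per kilobase of exon). The precursor of miR-126, Mir126a, was counted 4, 5, 0, 2 and 3 times across CM mice 1 to 5 and 0 times in all CM/miR-126Δ/Δ mice, which is near the detection limit of these libraries. The genes that define the sorted population were all expressed, with Kit at 702 to 1001 CPM and Ly6a, which encodes Sca-1, at 43.6 to 70.3 CPM over the 10 mice. Rn45s, the ribosomal RNA precursor, took 14.8% to 18.5% of counts in CM and 16.6% to 22.6% in CM/miR-126Δ/Δ mice, with the highest share in CM/miR-126Δ/Δ mouse 3. The replicates are separate mice, and in bulk RNA fewer cells that express a gene and less RNA per cell cannot be told apart.

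No member passed the study's cutoffs (p of at most 0.01, a change of at least 1.5-fold and a mean of at least 1 RPKM in 1 genotype) by edgeR's quasi-likelihood test, where 0.288% of the 18747 genes fitted did so, 0.192% as higher in CM/miR-126Δ/Δ. No member reached an adjusted p under 0.05 by edgeR or DESeq2, as did only 0.0107% of all genes by edgeR. At an unadjusted p under 0.05, Hoxb5 and Meis1 were higher in CM/miR-126Δ/Δ mice by both tools, and no member was lower. Over all genes 6.61% had such a p, and 3.29% had it with a higher level in CM/miR-126Δ/Δ. The log2 fold change (CM/miR-126Δ/Δ against CM) was above 0 for 6 members and below 0 for 3, with a median of 0.04, and the median over the 11682 genes with a mean of at least 1 RPKM was -0.02. For 8 members the 95% interval lay within a 1.5-fold change in either direction, and Hoxb5 was the exception. In no member did the mice of the 2 genotypes fall into ranges that did not overlap, which 1.38% of the genes with at least 1 RPKM showed.

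**Figure D1:**
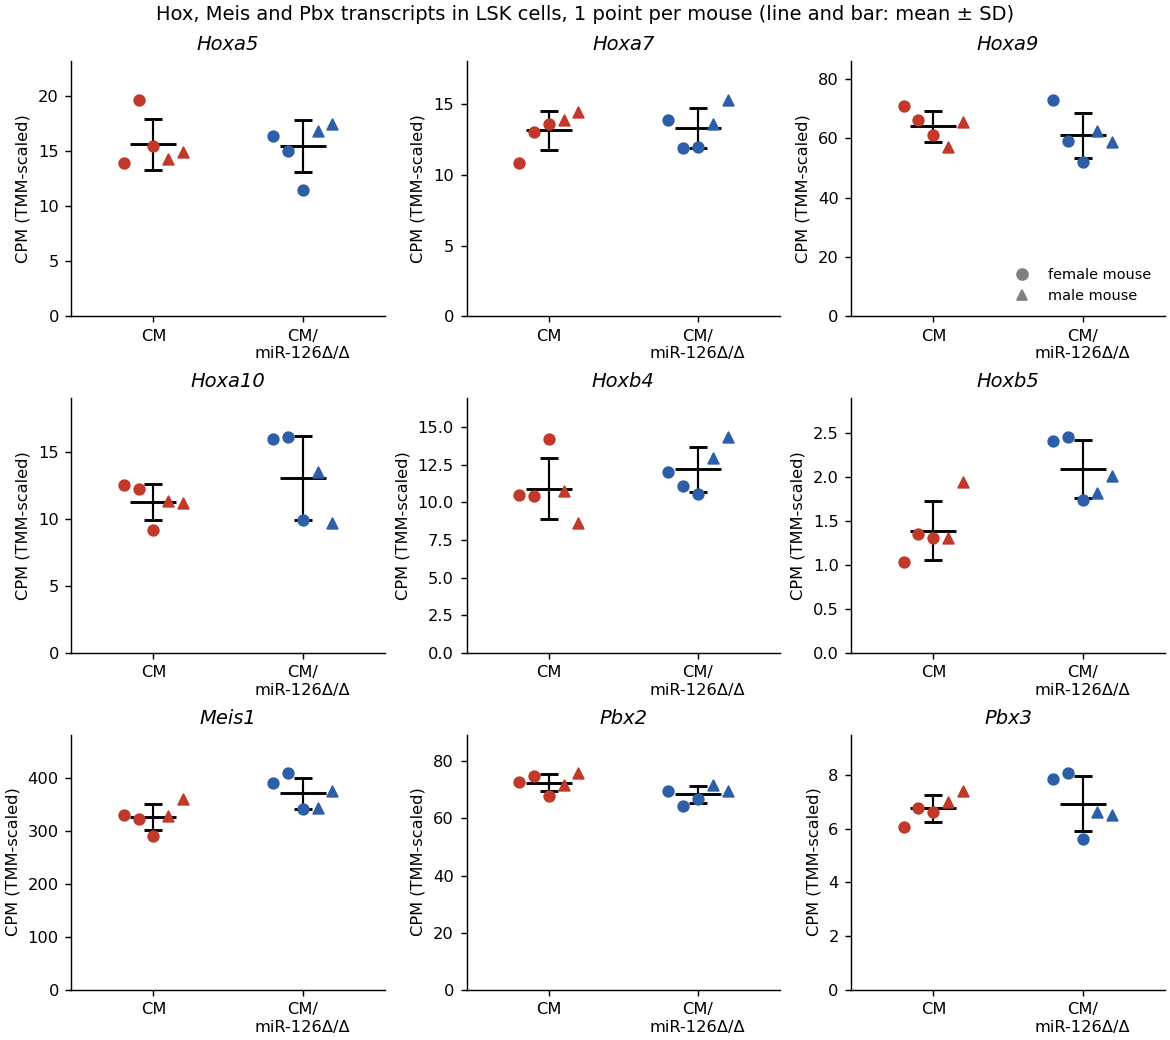
CPM (TMM-scaled, vertical axis from 0) of the 9 genes in each of the 5 CM mice (red) and 5 CM/miR-126Δ/Δ mice (blue), with the mean and SD in black. Circles are female and triangles male mice as read from Xist counts. The genotypes overlap in all 9 panels, least in Hoxb5 and Meis1, where 4 of 5 CM mice lie below every CM/miR-126Δ/Δ mouse.

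Hoxa9 is the Hoxa gene most tightly tied to AML and the partner of Meis1 in leukemic transformation. It lies on chromosome 6 from 52223097 to 52227370 on the minus strand (mm10). In CM mice 1 to 5 it was at 70.9, 66.1, 61.0, 57.1 and 65.4 CPM. In CM/miR-126Δ/Δ mice 1 to 5 it was at 72.9, 59.1, 51.9, 62.3 and 58.7 CPM. The highest and the lowest values were both in CM/miR-126Δ/Δ mice, in mouse 1 and mouse 3, and the other values of both genotypes lay between them. The means were 64.1 ± 5.26 and 61.0 ± 7.68 CPM (SD, n = 5 each), with a log2 fold change of -0.07 and an SE of 0.08 (edgeR, adjusted p = 0.85). An exact permutation test of mean log2 CPM, which cannot go below p = 0.00794 in this design, gave p = 0.437. The 95% interval of the fold ran from 0.84 to 1.08, and a change of 1.5-fold in either direction lies outside it. Protein was not measured in these libraries.

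Meis1 encodes the cofactor that speeds Hoxa9-driven leukemia and sustains stem cells. It lies on chromosome 11 from 18880428 to 19018969. It was at 330.3, 323, 290.4, 329 and 361 CPM in CM mice 1 to 5. It was at 389.9, 409, 341, 343 and 375 CPM in CM/miR-126Δ/Δ mice 1 to 5. CM/miR-126Δ/Δ mice 1, 2 and 5 lay above every CM mouse, and CM mouse 5 lay above the other two. The means were 327 ± 25.2 and 372 ± 29.4 CPM (SD, n = 5 each). The fold was 1.14 (interval 1.02 to 1.27, log2 fold change 0.19, SE 0.07), which did not survive correction over all genes (edgeR, adjusted p = 0.746). Before correction edgeR gave p = 0.0264 and the exact permutation test p = 0.0397. The unadjusted edgeR value was no longer under 0.05 without CM mouse 3 (log2 fold change 0.16) or without CM/miR-126Δ/Δ mouse 2 (log2 fold change 0.15).

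Hoxb5 marks long-term repopulating stem cells in mouse bone marrow and had the lowest level of the 9 members. It lies on chromosome 11 from 96303512 to 96306121. In CM mice 1 to 5 it was at 1.03, 1.35, 1.31, 1.31 and 1.95 CPM. In CM/miR-126Δ/Δ mice 1 to 5 it was at 2.41, 2.46, 1.74, 1.82 and 2.02 CPM. As for Meis1, CM mouse 5 was the only CM mouse within the range of the other genotype. The means were 1.39 ± 0.337 and 2.09 ± 0.332 CPM (SD, n = 5 each), a fold of 1.503 with an interval of 1.09 to 2.07. The log2 fold change was 0.59 with an SE of 0.21 (edgeR, adjusted p = 0.746). Before correction edgeR gave p = 0.0159 and the exact permutation test p = 0.0238, so the gene met the cutoffs on fold and on RPKM and missed the one on p. It met all 3 cutoffs when only genes with at least 1 RPKM were fitted (log2 fold change 0.61, edgeR, adjusted p = 0.585) and when CM mouse 5 was left out (log2 fold change 0.76, edgeR, adjusted p = 0.605). Hoxb5os, which overlaps Hoxb5 over 2610 bases on the opposite strand, had 6 to 27 counts per mouse, and a share of reads that passes between the 2 genes cannot be told apart if strand was not used in counting.

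The remaining Hoxa members, which act with Hoxa9 in progenitors and are often high in the same leukemias, differed by less than the spread between mice. Hoxa5 was at 13.9, 19.7, 15.5, 14.3 and 14.96 CPM in CM mice 1 to 5 and at 16.4, 15.1, 11.5, 16.9 and 17.5 CPM in CM/miR-126Δ/Δ mice 1 to 5. CM mouse 2 was the highest and CM/miR-126Δ/Δ mouse 3 the lowest, and the log2 fold change of -0.02 (SE 0.13) turned to 0.08 without the first and to 0.07 without the second. Hoxa5 also lies inside the span of Hoxa3 on the same strand, so part of its reads could have been left uncounted or assigned to that gene. Hoxa7 ranged from 10.9 to 14.5 CPM in CM and from 11.9 to 15.3 CPM in CM/miR-126Δ/Δ mice, with means of 13.2 ± 1.39 and 13.3 ± 1.43 CPM (SD, n = 5 each) and a log2 fold change of 0.02 (SE 0.11). Its sign turned without CM mouse 1 (-0.03) and without CM/miR-126Δ/Δ mouse 5 (-0.04).

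Hoxa10, which like Hoxa9 restrains myeloid differentiation when overexpressed, spread more widely among CM/miR-126Δ/Δ than among CM mice, a difference in spread that was not tested. It was at 12.5, 12.2, 9.13, 11.3 and 11.2 CPM in CM mice 1 to 5 and at 15.9, 16.1, 9.88, 13.5 and 9.67 CPM in CM/miR-126Δ/Δ mice 1 to 5. CM/miR-126Δ/Δ mice 1, 2 and 4 lay above every CM mouse, and mice 3 and 5 lay within the CM range. The means were 11.3 ± 1.32 and 13.0 ± 3.14 CPM (SD, n = 5 each), with a log2 fold change of 0.21 and an SE of 0.15 (edgeR, adjusted p = 0.765).

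Hoxb4, which expands stem cells when overexpressed, was at 10.5, 10.41, 14.2, 10.8 and 8.62 CPM in CM mice 1 to 5. It was at 12.02, 11.1, 10.5, 12.9 and 14.4 CPM in CM/miR-126Δ/Δ mice 1 to 5. CM mice 1, 2 and 5 lay below every CM/miR-126Δ/Δ mouse and CM mouse 3 above all but 1 of them, and the log2 fold change was 0.16 with an SE of 0.13 (edgeR, adjusted p = 0.765). Without CM mouse 3 it was 0.29, with an unadjusted p under 0.05 (edgeR, adjusted p = 0.578), and without either CM mouse 5 or CM/miR-126Δ/Δ mouse 5 it was 0.10. Among female mice, 3 per genotype, the CM mean was 11.7 CPM and the CM/miR-126Δ/Δ mean 11.2 CPM, and among male mice, 2 per genotype, these were 9.69 and 13.7 CPM. A different genotype effect in the 2 sexes was tested as an interaction, and its p was smallest for this gene (edgeR, adjusted p = 0.9999), so no difference between the sexes was shown for any member.

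Pbx2, a widely expressed cofactor, was the steadiest member. It was at 72.7, 74.8, 67.9, 71.7 and 75.8 CPM in CM mice 1 to 5 and at 69.8, 64.5, 66.7, 71.9 and 69.7 CPM in CM/miR-126Δ/Δ mice 1 to 5. It had the lowest coefficient of variation over the 10 mice, 5.03%, against 27.9% for Hoxb5. Its means were 72.6 ± 3.07 and 68.5 ± 2.92 CPM (SD, n = 5 each), with a log2 fold change of -0.08 and an SE of 0.05 (edgeR, adjusted p = 0.765). Pbx3, the cofactor most often high together with HOXA9 and MEIS1 in AML, was at 6.78 ± 0.503 and 6.94 ± 1.02 CPM (SD, n = 5 each). CM/miR-126Δ/Δ mice 1 and 2, at 7.86 and 8.07 CPM, lay above all CM mice and mouse 3, at 5.62 CPM, below them, with a log2 fold change of 0.04 (SE 0.13).

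**Figure D2:**
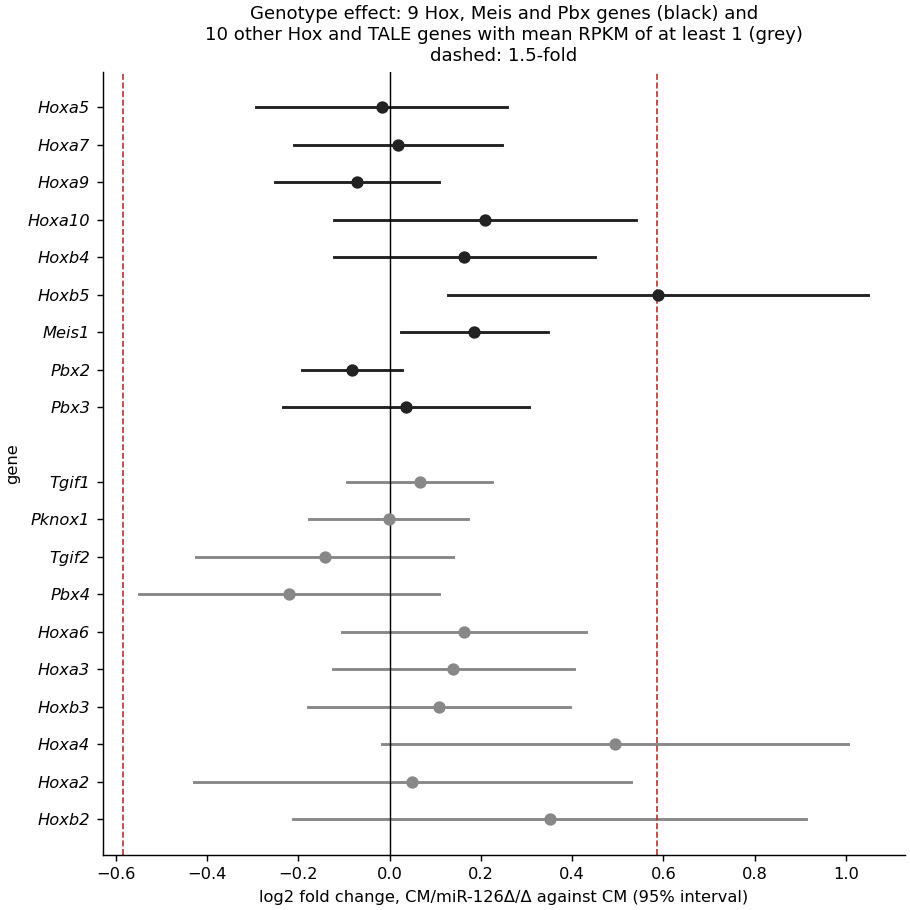
Log2 fold change of CM/miR-126Δ/Δ against CM (horizontal axis, edgeR) with its 95% interval for the 9 members (black) and 10 other Hox and TALE genes with a mean of at least 1 RPKM in 1 genotype (grey). The intervals of Hoxb5 (0.13 to 1.05) and Meis1 (0.03 to 0.35) lie above 0, and those of the other genes plotted include 0.

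Per length of exon, the members spanned a wide range of levels. The order by mean RPKM was Meis1 (94.97 in CM and 108 in CM/miR-126Δ/Δ), Pbx2 (23.6 and 22.3), Hoxa9 (19.8 and 18.9), Hoxa5 (8.34 and 8.23), Hoxa7 (6.75 and 6.84), Hoxb4 (4.25 and 4.75), Hoxa10 (3.58 and 4.14), Pbx3 (2.37 and 2.43) and Hoxb5 (0.733 and 1.10), the same in both genotypes. Neighbours in this order were compared within each of the 10 mice by an exact sign-change permutation test, whose smallest p is 0.00195, with adjustment over the 8 neighbouring pairs. Meis1 was 4.405-fold above Pbx2 in 10 of 10 mice and Hoxa9 2.35-fold above Hoxa5 in 10 of 10 mice (exact permutation, adjusted p = 0.0026 for each). Pbx2 exceeded Hoxa9 by a small margin, 1.19-fold, but in 10 of 10 mice (exact permutation, adjusted p = 0.0026). Hoxa5 was 1.21-fold above Hoxa7 in 9 of 10 mice (exact permutation, adjusted p = 0.00446). Hoxb4 and Hoxa10 were the only neighbours not told apart, at 1.17-fold with Hoxb4 higher in 7 of 10 mice (exact permutation, p = 0.105). Without division by length these 2 genes change places.

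**Figure D3:**
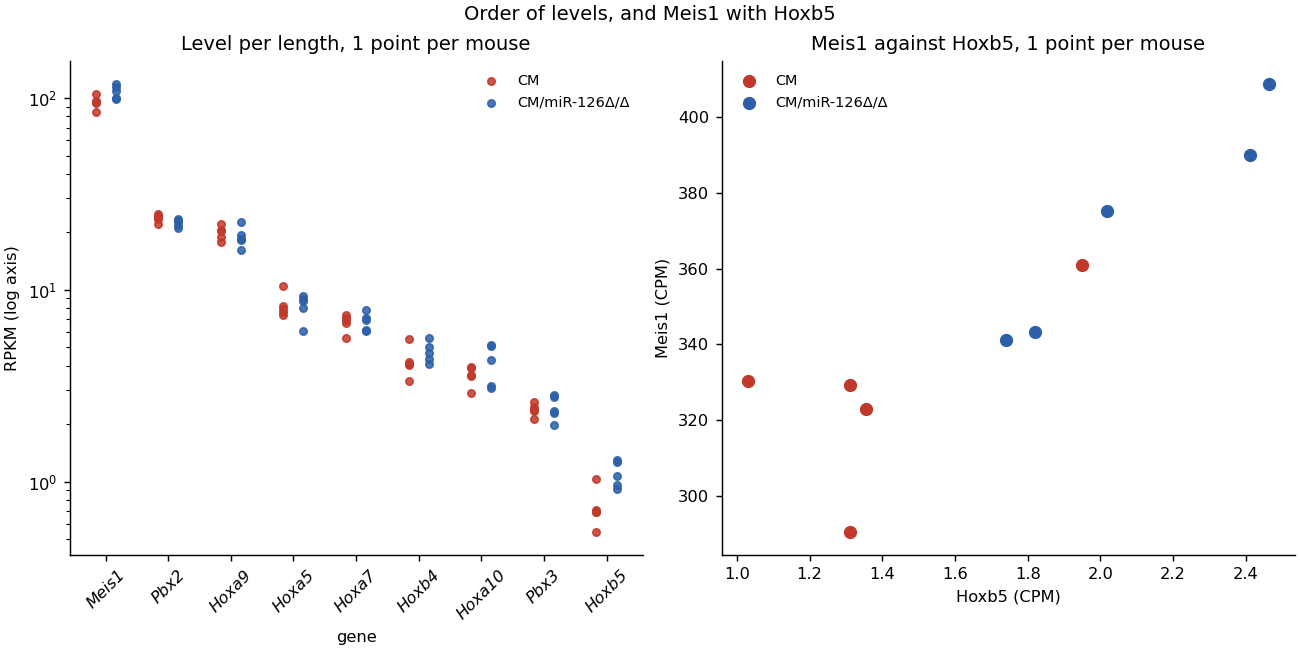
Left, RPKM (log axis) of the 9 members in order of their mean, with CM mice in red and CM/miR-126Δ/Δ mice in blue. Right, CPM of Meis1 against Hoxb5, 1 point per mouse. Levels fall from Meis1 at 84.4 to 119 RPKM to Hoxb5 at 0.543 to 1.30 RPKM, and on the right the mice with the highest Hoxb5 also have the highest Meis1.

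Members varied together across mice to different extents. Over the 36 pairs of members, Pearson's r of log2 CPM had a median of 0.24 and ran from -0.44 to 0.84, with 24 pairs positive and 12 negative. The pair most alike was Hoxb5 and Meis1 (r = 0.84, permutation p = 0.0022, adjusted over the pairs 0.0792, and Spearman's rho = 0.89, permutation p = 0.00117, adjusted 0.0421). Without the 2 mice farthest from the median of Hoxb5 r was 0.91. Both genes had a higher mean in CM/miR-126Δ/Δ mice, and on deviations from the genotype means r was 0.69 (permutation p = 0.0264, adjusted 0.287), so within genotypes this pair did not pass correction. Pbx3 had r = 0.82 with Hoxb5 on the same deviations (permutation p = 0.00341, adjusted 0.123) and 0.59 without regard to genotype. Hoxa10 and Pbx3 reached r = 0.66 (permutation p = 0.0386, adjusted 0.58), which dropped to 0.18 without the 2 mice farthest from the median of Hoxa10 and so rests on them. Hoxa9 and Meis1, the classical partners, had r = 0.08 over the 10 mice. By Pearson's r no pair passed an adjusted p of 0.05, pooled or within genotypes. The same mice stood out in several members. CM/miR-126Δ/Δ mice 1 and 2 had the 2 highest values of Hoxa10, Hoxb5, Meis1 and Pbx3, and mouse 3, which had the highest Rn45s share and the lowest RNA concentration (16.1 ng/µl), had the lowest values of Hoxa5, Hoxa9 and Pbx3. The part of RNA quality in these values was not tested.

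**Figure D4:**
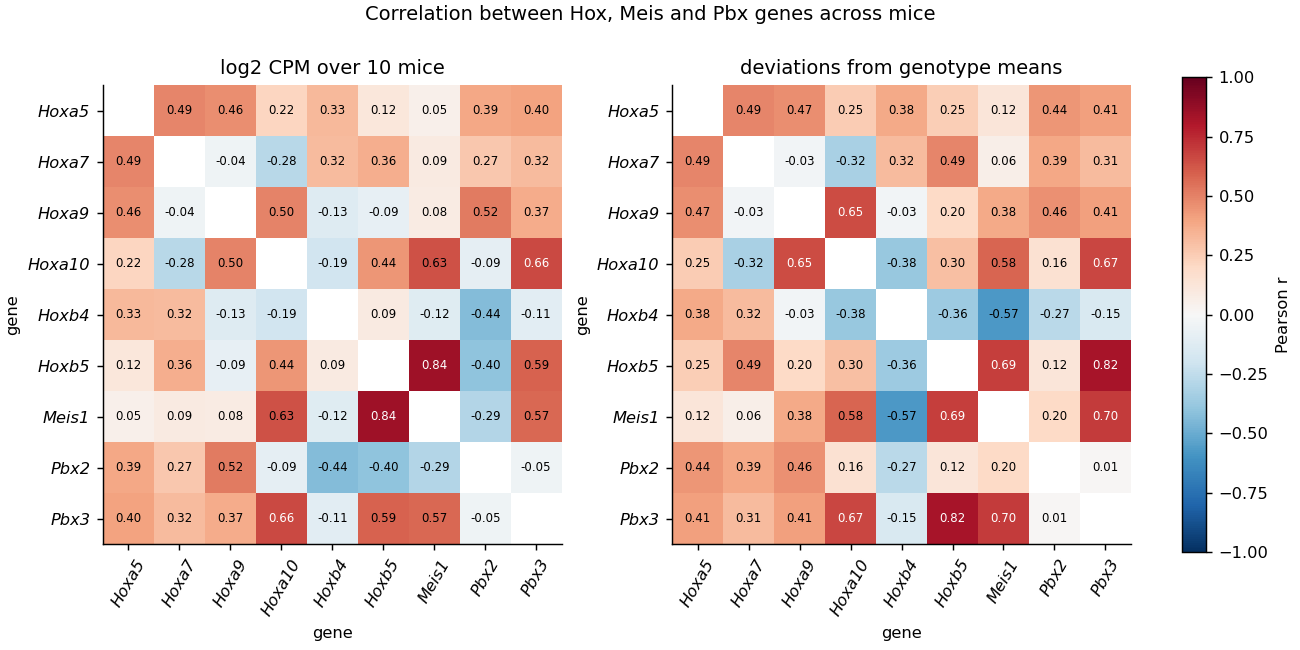
Pearson's r between members across mice (colour and printed value, from -1 in blue to 1 in red), on log2 CPM of all 10 mice (left) and on deviations from the genotype means (right). Meis1, Hoxb5, Pbx3 and Hoxa10 are positively related in both panels, and Hoxa9 with Meis1 is at 0.08 on the left and 0.38 on the right.

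Among all genes with at least 10 counts in 5 or more mice (13442 genes), those whose pattern over the 10 mice was most like that of Hoxa9 were Pafah2 (r = 0.93), Paip2b (r = 0.92) and Jam3 (r = 0.92). For Meis1 they were Def8 (r = 0.97), 5930403L14Rik (r = 0.94) and Cadps2 (r = 0.93). By Spearman's rho these were at 0.98, 0.88 and 0.67, so Cadps2 was less alike by rank. These are the highest of many values over 10 mice that share depth and composition, and they are given without a test.

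The members belong to a selective Hox pattern. Of the 39 Hox genes, 12 had a mean of at least 1 RPKM in 1 genotype, 8 of 11 in the Hoxa cluster and 4 of 10 in the Hoxb cluster. No gene of the Hoxc cluster (9 genes) or Hoxd cluster (9 genes) reached that level, and 13 Hox genes had no count in any mouse. The sum of Hox RPKM was 60.7 ± 2.92 in CM and 63.6 ± 6.51 in CM/miR-126Δ/Δ mice (SD, n = 5 each). The Hoxa cluster made up 83.8% and 81.9% of it, the Hoxb cluster 15.4% and 17.3%, and Hoxa9 alone 32.7% and 29.7%. The ratio of Meis1 to Hoxa9 in RPKM was 4.37 to 5.41 in CM and 5.02 to 6.497 in CM/miR-126Δ/Δ mice.

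**Figure D5:**
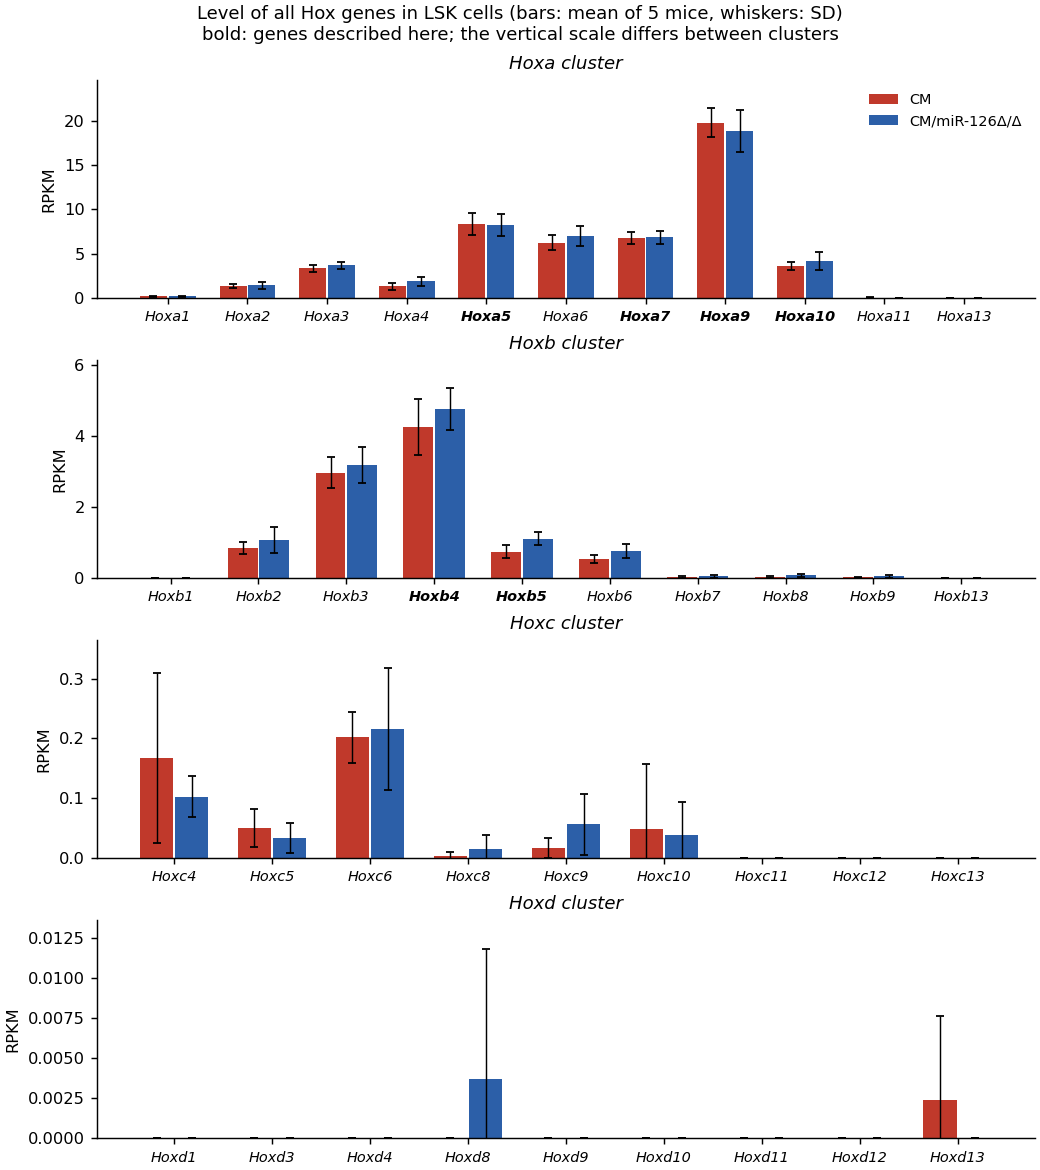
Mean RPKM of all 39 Hox genes by cluster in CM (red) and CM/miR-126Δ/Δ mice (blue), with the SD over 5 mice and a vertical scale of its own in each panel. Hoxa9 stands highest, the Hoxa and Hoxb signal lies in a run of neighbouring genes, and the Hoxc and Hoxd panels stay under 1 RPKM.

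None of the other 33 Hox genes passed the study's cutoffs. The 6 of them with at least 1 RPKM all had a log2 fold change above 0, with a median of 0.15. Hoxa6, between Hoxa5 and Hoxa7 in the cluster, was at 14.02 ± 1.94 and 15.7 ± 2.52 CPM, and Hoxa3 at 8.45 ± 1.04 and 9.30 ± 1.11 CPM (SD, n = 5 each). Hoxb3, next to Hoxb4, was at 11.01 ± 1.62 and 11.9 ± 1.91 CPM (SD, n = 5 each). Hoxa4 came nearest to a call, at 2.01 ± 0.614 and 2.82 ± 0.708 CPM (SD, n = 5 each), with a log2 fold change of 0.49 (SE 0.24, edgeR, adjusted p = 0.764). Hoxb8, Hoxb9 and Hoxc9, the others with the smallest p, had at most 8 counts in any mouse, and 1 of the 33, Hoxb8, had an unadjusted p under 0.05.

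Of the 15 non-coding genes of the Hox clusters in the table, 9 had a count and none passed the cutoffs. Mir196b, the precursor of a microRNA that targets Hox transcripts, lies between Hoxa9 and Hoxa10 (chromosome 6, 52230081 to 52230165). Its counts were 2, 3, 3, 0 and 3 for CM mice 1 to 5 and 4, 4, 10, 4 and 9 for CM/miR-126Δ/Δ mice 1 to 5. The genotypes did not overlap, at these low counts (log2 fold change 1.69, SE 0.59, edgeR, adjusted p = 0.726), and the gene met the cutoffs with the quasi-likelihood method of edgeR 4 (adjusted p = 0.668). Hoxb5os had a log2 fold change of -0.34 (SE 0.32), opposite in sign to Hoxb5. Hotairm1 (4 to 12 counts) and Hoxb3os (5 to 38 counts) differed by less than their SE, and Hoxaas2, Hoxaas3 and Mir615, the others with the smallest p, had at most 9 counts in any mouse.

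Of the 8 further TALE genes none passed the cutoffs. Pknox1 (52.1 ± 4.68 and 52.0 ± 5.63 CPM) and Tgif1 (52.6 ± 4.87 and 55.04 ± 4.37 CPM) differed by less than their SD (n = 5 each). Pbx4 and Tgif2 had log2 fold changes of -0.22 (SE 0.15) and -0.14 (SE 0.13). Meis1 accounted for over 99% of Meis RPKM in every mouse. Meis2 was counted 13, 31, 34, 3 and 3 times across CM mice 1 to 5 and 1, 5, 0, 5 and 3 times across CM/miR-126Δ/Δ mice 1 to 5, with an unadjusted p under 0.05 (edgeR, adjusted p = 0.696). Its higher counts were thus in the female CM mice, and it stayed under 1 RPKM. Meis3 had 6 to 29 counts.

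Of 36 genes known to act upstream of Hox transcription (the KMT2A complex and its elongation partners, acetyltransferases, Polycomb subunits, Cdx factors and others), 34 had a count and none passed the cutoffs, and 1 had an unadjusted p under 0.05. That gene was Mllt3, which encodes the AF9 subunit of the super elongation complex and maintains human stem cells, at 87.7 ± 10.5 and 108 ± 20.7 CPM (SD, n = 5 each), with a log2 fold change of 0.31 (SE 0.12, edgeR, adjusted p = 0.746). Ash1l, a histone methyltransferase that activates Hox genes, had a log2 fold change of 0.17 (SE 0.08), Kmt2d one of 0.20 (SE 0.10) and Eaf1 one of -0.14 (SE 0.08). The median over the list was -0.01, with 16 of 33 genes at 1 RPKM or more above 0, and 42.5% of all such genes were above 0.

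Of 25 genes described as targets of Hoxa9 and Meis1, none passed the cutoffs, and 11 of the 25 had a log2 fold change above 0 (median -0.02). Mecom, which encodes the stem cell factor EVI1, was at 106 ± 16.5 and 125 ± 15.2 CPM (SD, n = 5 each), with a log2 fold change of 0.24 (SE 0.11, edgeR, adjusted p = 0.748). Rgs1, a regulator of G protein signalling, was at 113 ± 63.0 and 58.4 ± 36.8 CPM (SD, n = 5 each), with a log2 fold change of -0.95 (SE 0.44, edgeR, adjusted p = 0.754). Syk and Pim1, kinases of Hoxa9 and Meis1 leukemia cells, had log2 fold changes of -0.10 (SE 0.06) and -0.13 (SE 0.09). Flt3, a Meis1 target, was at 426 ± 56.6 and 411 ± 59.2 CPM (SD, n = 5 each).

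None of 12 stem cell genes passed the cutoffs, and Hlf, a factor of stem cell maintenance, had the smallest p, at 581 ± 54.9 and 718 ± 89.7 CPM (SD, n = 5 each), with a log2 fold change of 0.31 (SE 0.10, edgeR, adjusted p = 0.661) and so under 1.5-fold. Hlf and Mecom were the 2 of the 12 with an unadjusted p under 0.05, both higher in CM/miR-126Δ/Δ. Kit and Vwf had log2 fold changes of 0.11 (SE 0.11) and 0.30 (SE 0.31), and Procr, which encodes EPCR, one of 0.02 (SE 0.22).

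Of the markers of other cell types, 1 passed the cutoffs. Summed over 9 lymphoid genes the level was 62.5 to 97.2 CPM in CM mice and 54.4 to 89.0 CPM in CM/miR-126Δ/Δ mice, with Cd3d, Cd3e and Ncr1 each under 1 RPKM on average, and Il7r, the receptor of early lymphoid progenitors, passed as lower in CM/miR-126Δ/Δ (log2 fold change -0.95, SE 0.28, edgeR, adjusted p = 0.626). This call was lost in 3 of 20 alternatives, with robust dispersions, without CM mouse 2 (log2 fold change -0.73) and without CM/miR-126Δ/Δ mouse 1 (log2 fold change -0.93). The lymphoid sum was mostly Nkg7, at 48.6 ± 11.8 and 47.7 ± 5.93 CPM (SD, n = 5 each). All 4 lymphoid genes with at least 1 RPKM had a log2 fold change below 0 (median -0.59), where 42.5% of all such genes were above 0. Besides Il7r these were Rag1 at -0.85 (SE 0.45), Cd79a at -0.32 (SE 0.62) and Nkg7 at -0.03 (SE 0.14), which did not pass the cutoffs. Ms4a1, under 1 RPKM, was higher in CM/miR-126Δ/Δ, at 0.87 (SE 0.76). Summed over 10 myeloid genes the level was 2238 to 4116 CPM in CM and 1888 to 4792 CPM in CM/miR-126Δ/Δ mice. Over 8 erythroid and megakaryocytic genes it was 177 to 219 CPM and 123 to 199 CPM, mostly Itga2b (means of 173 and 144 CPM). Over 6 stromal and endothelial genes it was 171 to 220 CPM and 179 to 203 CPM, mostly Pecam1 (means of 194 and 188 CPM). Pecam1 was the only gene of these 6 with at least 1 RPKM. The part of these cell types in the values of Meis1 and Hoxb5 was not tested.

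The promoters of the members were searched for the letters of a MEIS element (TGACAG) and of a HOX-PBX element (TGATTNAT) on both strands, since these factors can act on their own genes. RefSeq promoters (GRCm38.p6, from 250 bases before to 50 bases after the start) were found for 7 members, not for Hoxb5 or Pbx3. None of their 8 promoters held either string, which occur in 19.2% and 3.22% of the 32851 promoters of this length. These letters are therefore not in this window, and nothing follows from it about binding.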

How the data were processed

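RNA of sorted LSK cells from 10 mice was depleted of ribosomal RNA and sequenced as single reads of 51 bases. After trimming, the authors aligned the reads to mm10 with Tophat and used HTSeq 0.6.1p1 to count reads on RefSeq genes. They deposited raw counts, which are whole numbers and were not normalised, and a second table of these counts divided by 1 constant per library, not used here. Whether counting used strand is not given in the sources used here.

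The 18747 genes with at least 1 count in any mouse were fitted with edgeR 4.0.16 in R 4.3.3 (TMM, legacy quasi-likelihood F-test, genotype only, two-sided, Benjamini-Hochberg over all genes fitted), a procedure tested on simulated data, with DESeq2 1.42.0 among the alternatives. RPKM was computed from counts, exon lengths and TMM-scaled library sizes. Sex was read from Xist counts alone. Single genes were compared by two-sided exact permutation over the 252 divisions of 10 mice, correlations by 100000 permutations. Counts carry no molecular identifiers. Seed matches were sought in transcript sequences of the older build mm9.

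Members, lists and tests were chosen with earlier results of these data known. Named genes are the members, the 4 most abundant and the 4 with the smallest p of the other Hox, TALE and Hox cluster RNA lists, the 4 with the smallest p of the upstream, target and stem cell lists, and the 3 most like Hoxa9 and Meis1. Flt3, Procr, Ly6a, Il7r, Nkg7, Rag1, Cd79a, Ms4a1, Cd3d, Cd3e, Ncr1, Itga2b and Pecam1 were named outside this rule, as were Mir126a, Rn45s and Xist. Some items are not reported here.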

Additional observations from a re-analysis of the deposited data

Results flagged for a closer look

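Hoxa5 in CM mouse 2, at 19.7 CPM, lay further from the other 4 CM mice (13.9 to 15.5 CPM) than Dixon's test at its 5% level allows. It was 1 of 18 groups of 5 mice tested (9 genes in 2 genotypes), where chance alone gives 0.9. Without this mouse the log2 fold change of Hoxa5 was 0.08 (edgeR, adjusted p = 0.906). No other member had a mouse so far from its group.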

How the results depend on the processing

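The log2 fold changes of Hoxa9, Hoxa10, Hoxb4, Hoxb5, Meis1 and Pbx2 kept their sign in all 20 alternatives run (DESeq2, RLE factors, 3 filters, edgeR 4, a block for the replicate number, a term for sex, robust dispersions, Rn45s left out and each mouse left out), and no member had an adjusted p under 0.05 in any of them. Those near 0 did not keep it. Hoxa5 was at 0.00044 with filterByExpr and at 0.0024 among genes with at least 1 RPKM, and with a mouse left out it ran from -0.066 to 0.078, Hoxa7 from -0.036 to 0.069 and Pbx3 from -0.024 to 0.10. The number of members passing the cutoffs, 0, became 1 (Hoxb5) among genes with at least 1 RPKM and without CM mouse 5, and was 0 in every other alternative. With a mouse left out, Hoxa9 ran from -0.13 to -0.02 and Hoxa10 from 0.12 to 0.30. With edgeR 4, 1 Hox cluster RNA (Mir196b) passed. Over all genes 54 passed, and 33 to 127 did with a mouse left out, the lowest without CM/miR-126Δ/Δ mouse 5 and the highest without CM mouse 3, with 83 and 94 without CM/miR-126Δ/Δ mice 1 and 4. The cause was not tested.

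The replicate numbers run from 1 to 5 in both genotypes, but nothing in the labels ties them to a litter or day, and deviations from the genotype means correlated between same-numbered mice at 0.17, 0.15, 0.43, 0.29 and -0.01 (13442 genes), with 5 of 10 mice closest to their own number. The mean was 0.21, against -0.05 for mice of different number. Same-numbered mice were of the same sex and their libraries stand next to each other in the numbering of the columns. Since the last pair did not correlate, the numbers were not taken as pairs, and whether they mark a shared preparation is not known. With the number as a block 115 genes passed the cutoffs, 0 of them members and 1 (Rgs1) among the Hoxa9 and Meis1 targets. In each of the 5 same-numbered comparisons the CM/miR-126Δ/Δ mouse had the higher Hoxb5 and the higher Meis1. An exact sign-change permutation test of these comparisons gave p = 0.0625 for each gene, the smallest p it can give. With the number as a block the p of Hoxb5 and Meis1 was 0.0171 and 0.00867 before correction and 0.407 and 0.32 after it (edgeR). Depth limits Hoxb5 and the Hox genes and RNAs under 10 counts most.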
